A study of Homo sapiens with 39 samples.

Results

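A derivative of the human colorectal cancer line HCT116 that makes isoform 1 was compared with the line it came from. The comparison used 6 of the 39 libraries of the series, 3 of each group, assigned to their groups by their labels. The parental cells were Flp-In T-REx HCT116 without any HNF4A construct. The isoform 1 group was 1 stable line with a single inserted copy of hepatocyte nuclear factor 4 alpha (HNF4A) isoform 1, which carries GFP at its C-terminus and is induced by doxycycline. Both groups received 2.5 µg/ml doxycycline for 48 h in DMEM with 10% fetal bovine serum, penicillin and streptomycin. Until induction, blasticidin S and zeocin were in the medium of the parental cells, and blasticidin S and hygromycin B in that of the isoform 1 line, and these antibiotics were withdrawn when doxycycline was added. The 3 libraries of a group are replicates of 1 line, and the labels do not say whether they came from separate cultures, so p-values measure the spread between these libraries. Effects of isoform 1, of GFP, of the earlier antibiotic and of deriving 1 line cannot be told apart, because no group made GFP alone.

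HNF4A is a nuclear receptor that binds DNA as a homodimer and activates genes of hepatocytes and of the intestinal epithelium, among them apolipoproteins, clotting factors and proteins of the enterocyte surface. The gene has a pair of promoters, P1 and, farther upstream, P2. Isoform 1 is a P1 product with the full N-terminal activation domain, and in the gut P1 products are found mainly in differentiated cells of the epithelium, whereas P2 products also occur in the crypt.

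Transcript levels are given in TPM, a length-scaled share of each library's own total. Each library held between 28159 and 30553 gene rows above 0 TPM. Libraries of one group correlated with each other at 0.9956 or more across genes on the log2(TPM + 1) scale, and libraries of different groups at 0.9859 to 0.9884. Read depth cannot be read from TPM. The epithelial markers EPCAM, KRT8, KRT18 and CDH1 were high in all 6 libraries and summed to 2615 to 2754 TPM in the parental libraries and 4331 to 4806 TPM in the isoform 1 libraries, without a called gene among them. Markers of hepatocytes (ALB, APOA2, CYP8B1, AHSG and FGB) summed to 0.789 to 1.06 TPM in the parental and 0.71 to 1.39 TPM in the isoform 1 libraries. The goblet cell list summed to at most 2.03 TPM in any of the 6 libraries, with TFF3 listed at 0, the Paneth list to at most 0.506 TPM, with DEFA5 and DEFA6 listed at 0, and the enteroendocrine list to at most 0.537 TPM. The fibroblast list summed to 12.4 to 14.2 TPM in the parental and 11.9 to 13.8 TPM in the isoform 1 libraries, nearly all of it COL1A1. The leukocyte list moved from 3.78 to 5.18 TPM to 32.6 to 35.2 TPM through CD68 alone, while PTPRC stayed at or below 0.102 TPM and CD3E was listed at 0 in all 6 libraries.

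HNF4A mRNA was measured first. Summed over the 12 rows that the tables hold for its isoforms, HNF4A was at 31.9, 30.8 and 31.7 TPM in the parental cells and at 806, 776 and 765 TPM in the isoform 1 libraries. All isoform 1 libraries lay far above all parental ones. The row of isoform 1 itself was listed at 0 in each parental library and held 804, 774 and 763 TPM in the isoform 1 line. The parental signal fell in the rows of isoforms 7 to 12, the P2 products, which summed to 31.9, 30.8 and 31.7 TPM, most of it in the row of isoform 12 at 27.8, 27.3 and 28.7 TPM. In the isoform 1 line the same P2 rows summed to 0, 0.612 and 0.4 TPM. Reads of the shared exons are divided among near-identical transcripts, so a lower level of the endogenous P2 transcripts and another division of the reads cannot be told apart here. The 12 isoform rows entered no test.

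Which genes changed was asked with a limma fit on log2(TPM + 1) over the 15065 genes whose mean in the 6 libraries reached 1 TPM. A gene was called when its Benjamini-Hochberg adjusted p was under 0.05 and its log2 difference at least 1 in size. All differences below are isoform 1 minus parental on the log2(TPM + 1) scale, which understates the change of genes near 0. In total 719 genes were called (4.77% of the genes tested), of which 447 were higher (2.97%) and 272 lower (1.81%). By adjusted p alone 3035 genes were higher (20.1%) and 5803 lower (38.5%). The median difference of all genes tested was -0.105, and median-of-ratios scaling, which centres the libraries on their typical gene, moved it by 0.123 to 0.018. With that scaling 560 genes were called higher and 169 lower, a share of higher calls of 76.8% against 62.2%. The values of the 2 groups did not overlap in 714 of the 719 called genes, but this also held for most genes tested, 22.4% with isoform 1 higher and 42.6% with isoform 1 lower, so a lack of overlap stated for a gene below only describes its values. By RefSeq's class of each name, 367 of the higher and 227 of the lower calls were protein-coding, 52 higher and 18 lower calls were long noncoding RNAs, and 12 lower calls were small nucleolar RNAs.

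**Figure D1:**
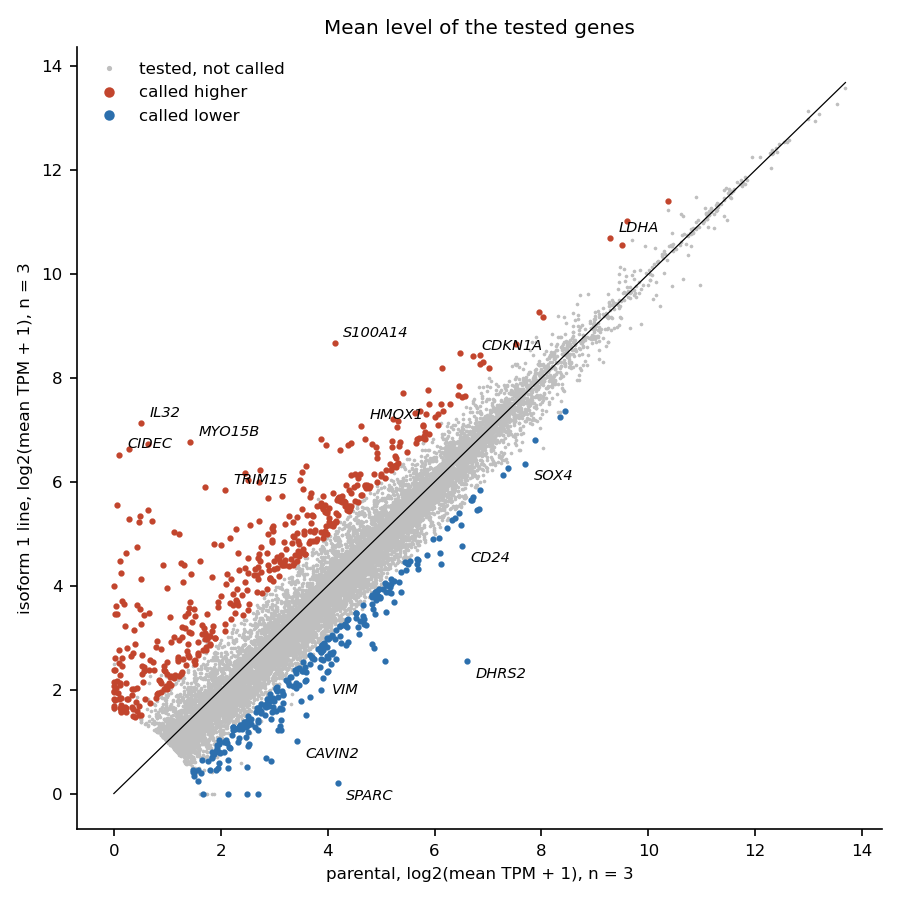
Mean level of each of the 15065 tested genes in the parental group (x axis) and in the isoform 1 line (y axis), both as log2(mean TPM + 1) of 3 libraries. Red points are the 447 genes called higher and blue points the 272 called lower, and the black line marks equal levels. More genes lie far above the line than far below it: 37 genes were called at a difference of 3 or more and 2 at -3 or below.

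The largest rises came from genes that were nearly silent in the parental cells. IL32, a cytokine made by epithelial and lymphoid cells (chromosome 16, 3065297 to 3082192, GRCh38), was at 0.446, 0.524 and 0.304 TPM in the parental cells and at 148, 122 and 148 TPM in the isoform 1 line, a difference of 6.62 ± 0.15 (SE, limma adjusted p = 1.69e-24). CIDEC, which drives the growth of lipid droplets by fusing them (chromosome 3, 9866711 to 9880254), was at 0.0344, 0.125 and 0.0643 TPM and then at 99.6, 86.0 and 87.7 TPM (6.42 ± 0.13). Neither gene had a parental library within reach of the isoform 1 libraries. C11orf86, whose function is not well known, went from a mean of 0.217 ± 0.0805 to 98.8 ± 11.4 TPM (SD, n = 3), and ACSL5, an enzyme that activates long-chain fatty acids to their CoA esters, from 0.526, 0.64 and 0.485 TPM to 110, 93.9 and 111 TPM. APOBEC1, the cytidine deaminase that edits apolipoprotein B mRNA in the small intestine, was at 0, 0.121 and 0 TPM and then at 48.0, 41.8 and 48.2 TPM (5.50 ± 0.19). APOB itself, the editing target, was listed at 0 in all isoform 1 libraries and at most at 0.00882 TPM in the parental ones. MYO15B, an unconventional myosin, had 1.66, 1.59 and 1.78 TPM and then 112, 100 and 110 TPM (5.34 ± 0.16). CREB3L3, a transcription factor bound to the endoplasmic reticulum of hepatocytes and enterocytes that activates lipid genes, rose from 0.251, 0.182 and 0.198 TPM to 43.3, 36.6 and 33.8 TPM (5.00 ± 0.16). The pseudogene AQP7P3 completed the 8 largest rises at 4.87 ± 0.19, with 0.157, 0.687 and 0.355 TPM before and 46.5, 35.6 and 37.4 TPM after. Its reads can be shared with copies of AQP7, so its value is uncertain. AQP7 itself was at a mean of 0.291 TPM in the parental cells and 0.418 TPM in the isoform 1 line.

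A gene was counted as switched on when every parental library was under 1 TPM and every isoform 1 library at 5 TPM or more. Of the 45434 rows of the table, 31 met this (0.0682%), 26 of them protein-coding, and all 31 were also called by the fit, as the rule nearly ensures. Besides those above they included VIL1, the actin bundler villin of the microvillus, at 0.482, 0.683 and 0.497 TPM and then 44.2, 38.2 and 45.6 TPM. PRAP1, a proline-rich acidic protein of the gut and liver, went from 0.709, 0.448 and 0.788 to 40.8, 36.6 and 33.8 TPM. SDCBP2, a PDZ domain protein, went from 0.322, 0.552 and 0.297 to 39.7, 29.5 and 39.8 TPM. In each of the 3 the lowest isoform 1 library lay more than an order of magnitude above the highest parental one. BAAT, which conjugates bile acids with glycine or taurine, was at 0.502, 0.297 and 0.248 TPM in the parental and 29.7, 21.6 and 25.9 TPM in the isoform 1 libraries. CYP17A1, the steroid 17-hydroxylase of adrenal and gonad, was at 0.113, 0.191 and 0.188 TPM and then at 27.9, 17.1 and 26.6 TPM. In both genes the second isoform 1 library was the lowest, and still far above the parental ones. CYP17A1-AS1, an antisense RNA at the same locus, was also called (1.48 ± 0.22), and as the use of strand in the counting is not given, reads of the pair cannot be told apart.

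**Figure D2:**
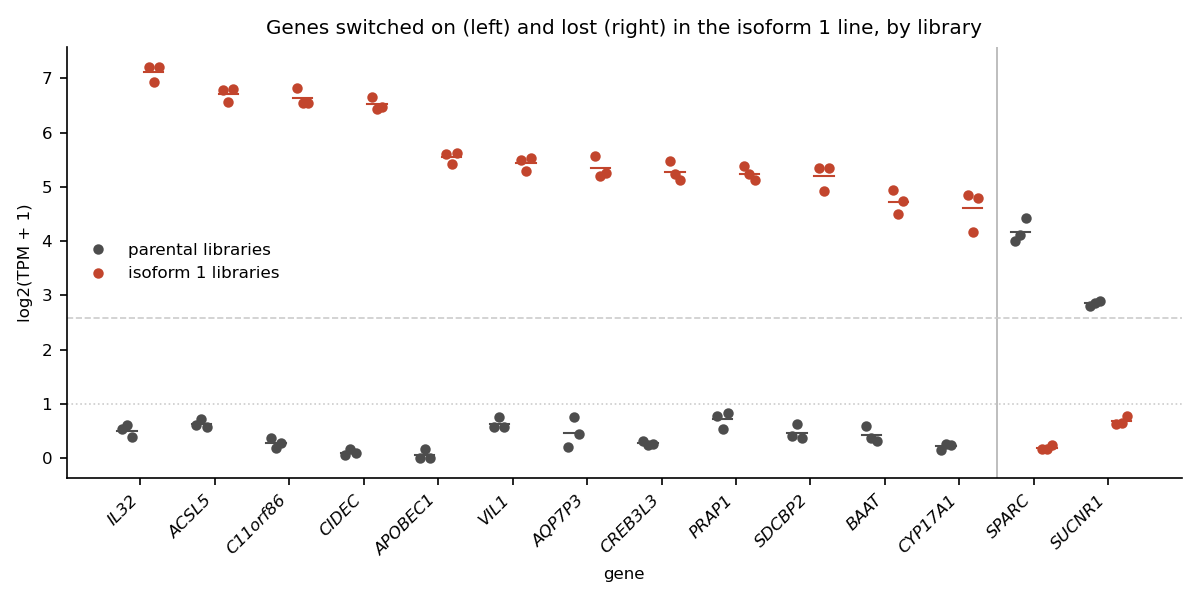
Level of the 12 switched-on genes with the highest isoform 1 mean and of the 2 lost genes in each library, as log2(TPM + 1) on the y axis, with the genes on the x axis. Points are libraries, short bars are group means of 3 libraries, the dotted line is 1 TPM and the dashed line 5 TPM. In all 14 genes the parental and isoform 1 libraries lie on opposite sides of both lines, as the rule demands.

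The remaining switched-on genes, of which those named here were chosen after their values were seen, held several carriers and surface proteins. SLC1A7, a glutamate transporter, went from a mean of 0.0139 to 10.0 TPM, SLCO2B1, an organic anion transporter of gut and liver, from 0.0348 to 9.98 TPM, and SLC7A7, a subunit of a basolateral amino acid transporter, from 0.304 to 7.86 TPM. LGALS4, a galectin of the intestinal epithelium, went from 0.137 to 11.5 TPM. The extracellular protein vitronectin, VTN, went from 0.0288 to 11.2 TPM, and HHLA2, a B7 family surface protein, from 0.184 to 5.97 TPM. HKDC1, a hexokinase, had 0.0927, 0.0815 and 0.0577 TPM and then 23.2, 18.1 and 22.6 TPM. In 109 of the 447 genes called higher, the parental mean was under 1 TPM.

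Promoter sequences were read for the switched-on genes, because a protein that binds DNA was induced. The windows run from 250 bases before to 50 bases after the start site in RefSeq (GRCh38.p14). Part of the HNF4A half-site pair was searched on both strands as 3 exact words of 9 letters, CAAAGTCCA, CAAAGTTCA and CAAAGGTCA. The words do not span the whole pair, and they cannot overlap one another at the same place. Of the 31 switched-on genes 24 had a window, and 5 of these held a word (20.8%). The share was 6.46% of the genes called higher (21 of 325), 0.571% of the genes called lower (1 of 175), 0.539% of the tested genes not called (56 of 10382) and 1.07% of all windows in the table (292 of 27305). A match is a description of letters and was not tested as a site. The 5 switched-on genes with a word are shown as the only ones of that set to hold one, each for 270 bases up to 20 bases past the start site on the strand of the gene, with the word in capitals.
APOBEC1, chr12:7665889-7666158, minus strand: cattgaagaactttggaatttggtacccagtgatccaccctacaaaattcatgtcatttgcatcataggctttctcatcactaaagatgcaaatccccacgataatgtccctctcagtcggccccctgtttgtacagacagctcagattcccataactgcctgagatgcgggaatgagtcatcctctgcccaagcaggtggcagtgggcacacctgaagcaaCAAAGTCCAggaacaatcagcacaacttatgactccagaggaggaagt
CLRN3, chr10:127892922-127893191, minus strand: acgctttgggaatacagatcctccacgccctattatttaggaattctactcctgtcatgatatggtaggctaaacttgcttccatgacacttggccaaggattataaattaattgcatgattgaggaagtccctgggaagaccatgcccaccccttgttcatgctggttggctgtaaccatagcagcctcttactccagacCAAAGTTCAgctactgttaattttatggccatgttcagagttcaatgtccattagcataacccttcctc
VTN, chr17:28370288-28370557, minus strand: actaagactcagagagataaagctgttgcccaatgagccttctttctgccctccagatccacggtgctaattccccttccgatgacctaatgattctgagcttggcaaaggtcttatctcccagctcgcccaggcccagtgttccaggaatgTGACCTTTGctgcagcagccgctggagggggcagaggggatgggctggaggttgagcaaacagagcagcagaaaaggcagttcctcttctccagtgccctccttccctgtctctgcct
PPP1R14D, chr15:40828689-40828958, minus strand: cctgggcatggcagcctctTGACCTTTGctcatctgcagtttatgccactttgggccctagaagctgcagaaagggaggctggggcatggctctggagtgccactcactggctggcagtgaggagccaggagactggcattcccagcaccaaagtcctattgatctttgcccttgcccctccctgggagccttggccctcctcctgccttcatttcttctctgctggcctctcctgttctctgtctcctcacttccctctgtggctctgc
PIPOX, chr17:29042891-29043160, plus strand: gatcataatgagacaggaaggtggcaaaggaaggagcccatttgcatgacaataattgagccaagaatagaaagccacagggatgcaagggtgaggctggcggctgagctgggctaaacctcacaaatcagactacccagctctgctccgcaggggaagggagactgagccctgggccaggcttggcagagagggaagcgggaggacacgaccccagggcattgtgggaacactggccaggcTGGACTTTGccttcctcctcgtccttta
The word of APOBEC1 begins 28 bases before the start site and reads CAAAGTCCA on the strand of the gene, and that of CLRN3 begins 49 bases before it and reads CAAAGTTCA. In VTN, PPP1R14D and PIPOX the word lies on the opposite strand and begins 98, 231 and 8 bases before the start site. CLRN3, a membrane protein of the clarin family, was at 0.0996, 0.141 and 0.0557 TPM in the parental and 17.5, 15.8 and 20.7 TPM in the isoform 1 libraries. PIPOX, a peroxisomal sarcosine oxidase, was at 0.429, 0.575 and 0.288 TPM and then at 9.24, 8.25 and 8.32 TPM. In these genes every isoform 1 library lay above every parental one, as the rule for switched-on genes demands.

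The same 31 genes were followed through the other 11 lines, which each carry another isoform. As they were chosen for their level in isoform 1, the comparison is a description. In 26 of the 31 isoform 1 had the highest mean of the 12 lines. At a mean of 5 TPM or more, 30 were also on in the isoform 2 line, 12 in the isoform 3 line and 10 in the isoform 7 line. More were on in the isoform 10 and 11 lines than in those of isoforms 3 and 7. In the lines of isoforms 4 to 6 every mean was at or below 3.99 TPM, that of CIDEC in isoform 4. No gene was on in the isoform 1 line alone. Tested against the isoform 2 line 1 of the 31 was called, PRAP1, which was higher in isoform 1 (1.04, limma adjusted p = 2.38e-06). Tested against the isoform 7 line 27 of the 31 were called. ANPEP, the brush border aminopeptidase N, was among the exceptions, with means of 8.36 TPM in isoform 1 and 8.46 TPM in isoform 7.

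**Figure D3:**
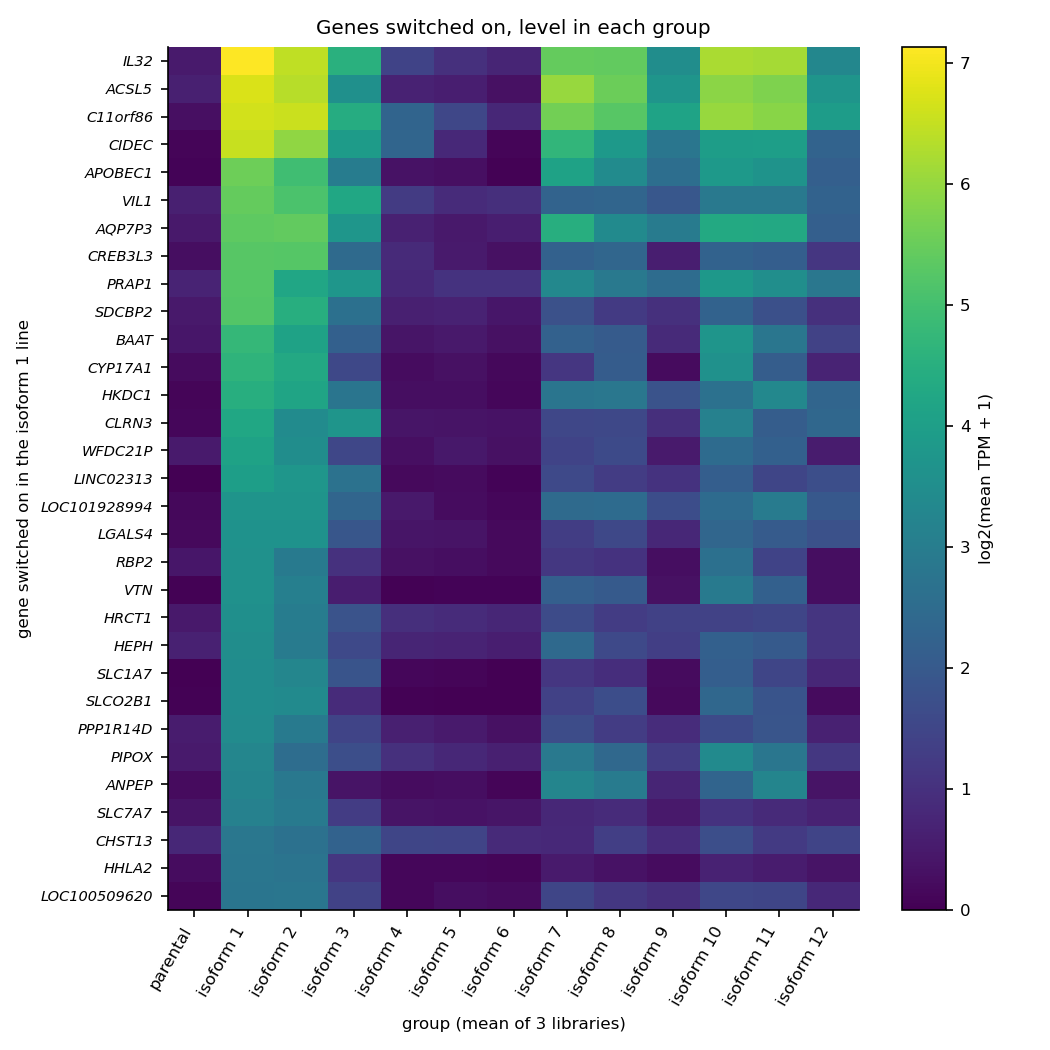
Mean level (log2(mean TPM + 1), colour) of the 31 genes switched on in the isoform 1 line (rows, by isoform 1 mean) in the parental cells and the 12 lines (columns, 3 libraries each). The isoform 2 column is close to the isoform 1 column, and 12 genes in isoform 3 and 10 in isoform 7 reach 5 TPM. More genes reach it in isoforms 10 and 11, while the columns of isoforms 4 to 6 stay below it.

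Known HNF4A targets of liver and gut were described first among the gene lists. Calls in each list below stand beside 2.97% higher and 1.81% lower over all genes tested. Counts by adjusted p alone stand beside 20.1% higher and 38.5% lower. Of 21 listed genes 8 passed the filter on low values, and 7 were called higher and 0 lower, with a median difference of 2.01 beside -0.105 over all genes tested. As most of the 8 passed only through the isoform 1 line, this count is no measure of how often targets respond. Of the 2 that were on in the parental cells, F10, clotting factor X, rose from 9.59, 8.60 and 9.58 TPM to 39, 34.7 and 35.3 TPM (1.86 ± 0.14), and MTTP, which loads lipid onto apolipoprotein B, did not pass (0.00). APOA1, the main protein of high-density lipoprotein, was at 0.397, 0.115 and 0.309 TPM and then at 6.75, 4.75 and 5.14 TPM (2.36 ± 0.12). APOA4, made by enterocytes with chylomicrons, was listed at 0 in the parental cells and at 3.85, 1.58 and 2.14 TPM in the isoform 1 line. APOC3, an inhibitor of lipoprotein lipase, was listed at 0 in 2 parental libraries and at 0.287 TPM in the third, and then at 3.55, 1.61 and 2.53 TPM. The 3 genes lie beside each other on chromosome 11, and in all 3 the isoform 1 libraries stayed above the parental ones. Their neighbours ZPR1 and SIK3, chosen after their values were seen, were at means of 61.0 and 67.1 TPM and of 15.5 and 16.7 TPM, and neither was called. Many classical targets stayed silent: FABP1, the fatty acid carrier of liver and enterocytes, and TTR, transthyretin, were listed at 0 in all 6 libraries, and the 13 listed targets that did not pass the filter had too low a mean to be tested. In the wider list of apolipoproteins and lipoprotein handling 4 of 19 tested genes were called higher and 0 lower, with a median of 0.09, and of the 14 that were on in the parental cells 0 were called.

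Genes of lipid storage and fatty acid use formed the next groups. Of 14 tested lipid droplet genes 2 were called higher, CIDEC and CIDEB, and 0 lower (median 0.25), and of the 13 that were on in the parental cells 1 was called (median 0.23). CIDEB, which acts on lipid droplets and on the lipidation of lipoproteins in liver and gut, rose from 2.42, 2.20 and 2.22 TPM to 60.4, 52.0 and 63.2 TPM (4.18 ± 0.18, limma adjusted p = 3.19e-18). The coat proteins PLIN2 and PLIN3 had differences of 0.23 and 0.92 and were not called. Of 30 tested genes of fatty acid activation, oxidation and ketogenesis 6 were called higher and 0 lower, with a median of 0.52, and by adjusted p alone 22 were higher and 5 lower. Of the 29 that were on in the parental cells, all but ACSL5, 5 were called higher (median 0.48). SLC25A20, the carnitine-acylcarnitine carrier of mitochondria, was at 17.5, 16.2 and 17.3 TPM and then at 47.6, 47.1 and 52.3 TPM (1.48 ± 0.08). ACAA2, the mitochondrial thiolase, was at 55.2, 56.3 and 56.6 TPM and then at 156, 145 and 172 TPM (1.47 ± 0.06), and HADHB, a subunit of the trifunctional protein, went from a mean of 70.9 ± 2.42 to 165 ± 6.01 TPM (SD, n = 3). No isoform 1 library of these genes overlapped with a parental one. CPT1A, which commits fatty acids to mitochondria, had a difference of 0.17 and was not called. AGPAT2 and MOGAT3, enzymes of triglyceride synthesis chosen after their values were seen, rose by 1.88 ± 0.06 and 1.92 ± 0.11. MOGAT3 reached a mean of 3.39 TPM from 0.163 TPM.

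Brush border genes, which build the microvilli of absorptive cells, gave 10 calls, all of them higher. Of 18 tested genes 10 were called higher and 0 lower, with a median of 1.21. Of the 15 that were on in the parental cells 7 were called higher, with a median of 0.93. Among all 14806 genes tested that were on in the parental cells 338 were called higher. MISP, an actin-binding protein of the rootlets of microvilli, was at 10.4, 10.1 and 11.1 TPM and then at 77.0, 65.2 and 74.7 TPM (2.67 ± 0.09). MYO1A, the myosin that ties the actin core to the microvillus membrane, was at 0.0719, 0.0781 and 0.0599 TPM and then at 5.06, 4.20 and 4.79 TPM (2.41 ± 0.13). EPS8L3, a member of a family of actin-capping proteins, was listed at 0 in the parental cells and at 4.74, 4.13 and 3.81 TPM in the isoform 1 line. SLC9A3R1, the scaffold that links membrane proteins to ezrin, rose from a mean of 88.3 to 359 TPM, the highest level reached by a called gene of this list. EZR, ezrin itself, and PLS1, plastin 1, had differences of 0.49 and -0.03 and were not called. Of 48 listed enterocyte hydrolases and transporters 18 passed the filter, of which 8 were called higher and 0 lower (median 0.64). Of the 13 that were on in the parental cells 3 were called, with a median of -0.02. RBP2, the retinol carrier of enterocytes, was at 0.412, 0.252 and 0.385 TPM and then at 14, 9.63 and 10.4 TPM. ANPEP was at 0.181, 0.119 and 0.174 TPM and then at 9.00, 8.73 and 7.34 TPM. HEPH, a copper oxidase for iron export, was at 0.539, 0.559 and 0.622 TPM and then at 10.2, 9.67 and 10.6 TPM. ABCG2, an efflux pump of the apical membrane, was on in the parental cells at 2.10, 2.19 and 1.85 TPM and rose to 21.1, 20.6 and 22.4 TPM (2.88 ± 0.11). In these 4 genes the groups did not overlap. SI, sucrase-isomaltase, the classical disaccharidase of the enterocyte, stayed at or below 0.014 TPM in every library.

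Cell junction genes were called only in the higher direction. Of 27 tested genes of tight junctions, desmosomes and gap junctions 6 were called higher and 0 lower (median 0.67). The share of all genes was 2.97% and 1.81%. By adjusted p alone 21 were higher and 1 lower, beside 20.1% and 38.5% of all genes. TJP3, a scaffold of tight junctions also called ZO-3, was at 13.9, 13 and 15.3 TPM and then at 55.1, 44.9 and 56.5 TPM (1.81 ± 0.13). PKP2, a plakophilin of desmosomes, went from 14.1, 14.2 and 15.2 TPM to 41.7, 41.8 and 42.6 TPM (1.47 ± 0.09). CLDN23, a claudin, and DSC2, a desmosomal cadherin, rose by 1.44 ± 0.10 and 1.38 ± 0.12. The epithelial markers KRT8, KRT18 and CDH1 had differences of 0.85, 0.96 and 0.89, below the fold that was asked for, with non-overlapping libraries. With median-of-ratios scaling KRT18 and CDH1 passed it. In the list of mucins, CEACAMs, trefoil factors and epithelial keratins 8 of 24 genes were tested, and 0 were called higher and 1 lower. That gene was KRT80, at a mean of 27.9 ± 0.369 TPM and then 10.7 ± 0.967 TPM (SD, n = 3). With median-of-ratios scaling 2 genes of this list were called higher.

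Mesenchymal, matrix and caveolar genes were called in both directions. Of 23 tested 1 was called higher and 3 lower, with a median of -0.02. SPARC, a matrix protein that binds collagen (chromosome 5, 151661096 to 151687165), was at 15, 16.3 and 20.4 TPM in the parental cells and at 0.129, 0.119 and 0.187 TPM in the isoform 1 line, a difference of -3.98 ± 0.34 (limma adjusted p = 2.00e-11). CAVIN2, a coat protein of caveolae, went from 9.66, 8.70 and 10.8 TPM to 0.955, 0.905 and 1.20 TPM. VIM, the intermediate filament protein vimentin, went from 13.8, 14.6 and 13.9 TPM to 3.52, 4.17 and 3.38 TPM (-1.69 ± 0.22). The falls in these 3 genes left no overlap between the groups. S100A4, a calcium-binding protein tied to cell motility, rose from a mean of 130 to 290 TPM. CAV1, CAVIN1 and COL1A1 had differences of -0.10, 0.45 and -0.02 and were not called.

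Of the genes lost, defined as every parental library at 5 TPM or more and every isoform 1 library under 1 TPM, there were 2 in 45434 rows (0.0044%). SPARC was one, and SUCNR1, the receptor for succinate, was the other, at 6.01, 6.25 and 6.44 TPM and then at 0.547, 0.559 and 0.723 TPM (-2.17 ± 0.15). In the other 11 lines SPARC means lay at 0.105 to 5.14 TPM, against 17.2 TPM in the parental cells, so its fall was not particular to isoform 1. SUCNR1 means there ranged from 0.215 to 15.8 TPM, against a parental mean of 6.24 TPM. DHRS2, a mitochondrial dehydrogenase, had the lowest difference on the log2(TPM + 1) scale, with 83.9, 99.3 and 106 TPM before and 5.85, 4.53 and 4.15 TPM after (-4.06 ± 0.41). With a pseudocount of 0.1 it was at -4.30 and SPARC at -6.14, so their order depends on that choice. FGFBP1, a secreted carrier of fibroblast growth factors, went from 31.5, 36.9 and 30.0 TPM to 4.59, 5.49 and 4.57 TPM (-2.52 ± 0.22). PPP1R1B, a phosphatase inhibitor first known from brain, went from 4.86, 5.88 and 9.15 TPM to 0.579, 0.662 and 0.398 TPM. None of these genes had overlapping groups, and in PPP1R1B the parental libraries differed most among themselves. In the other 11 lines FGFBP1 means lay at 4.00 to 15.4 TPM and PPP1R1B means at 0.424 to 3.87 TPM. All of these were below the parental means of 32.8 and 6.63 TPM. DHRS2 means in those lines ranged from 3.82 to 199.7 TPM, against a parental mean of 96.4 TPM. The small nucleolar RNAs SNORA2A and SNORA22C and the noncoding RNA LOC107986892 were also among the 8 lowest. Their levels differed widely between replicates: SNORA2A was at 9.06, 1.36 and 6.08 TPM and then listed at 0, and the call of SNORA22C was lost without parental replicate 1 or 3 and without the filter on low values, with adjusted p-values of up to 0.0796 over the alternatives. CD24 and SOX4, chosen after their values were seen, fell from a higher level. CD24, a surface glycoprotein of epithelial progenitors, was at 93.4, 95.5 and 82.9 TPM and then at 25.6, 25.7 and 27.6 TPM. SOX4, a transcription factor of progenitors, went from a mean of 206 to 80.6 TPM.

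**Figure D4:**
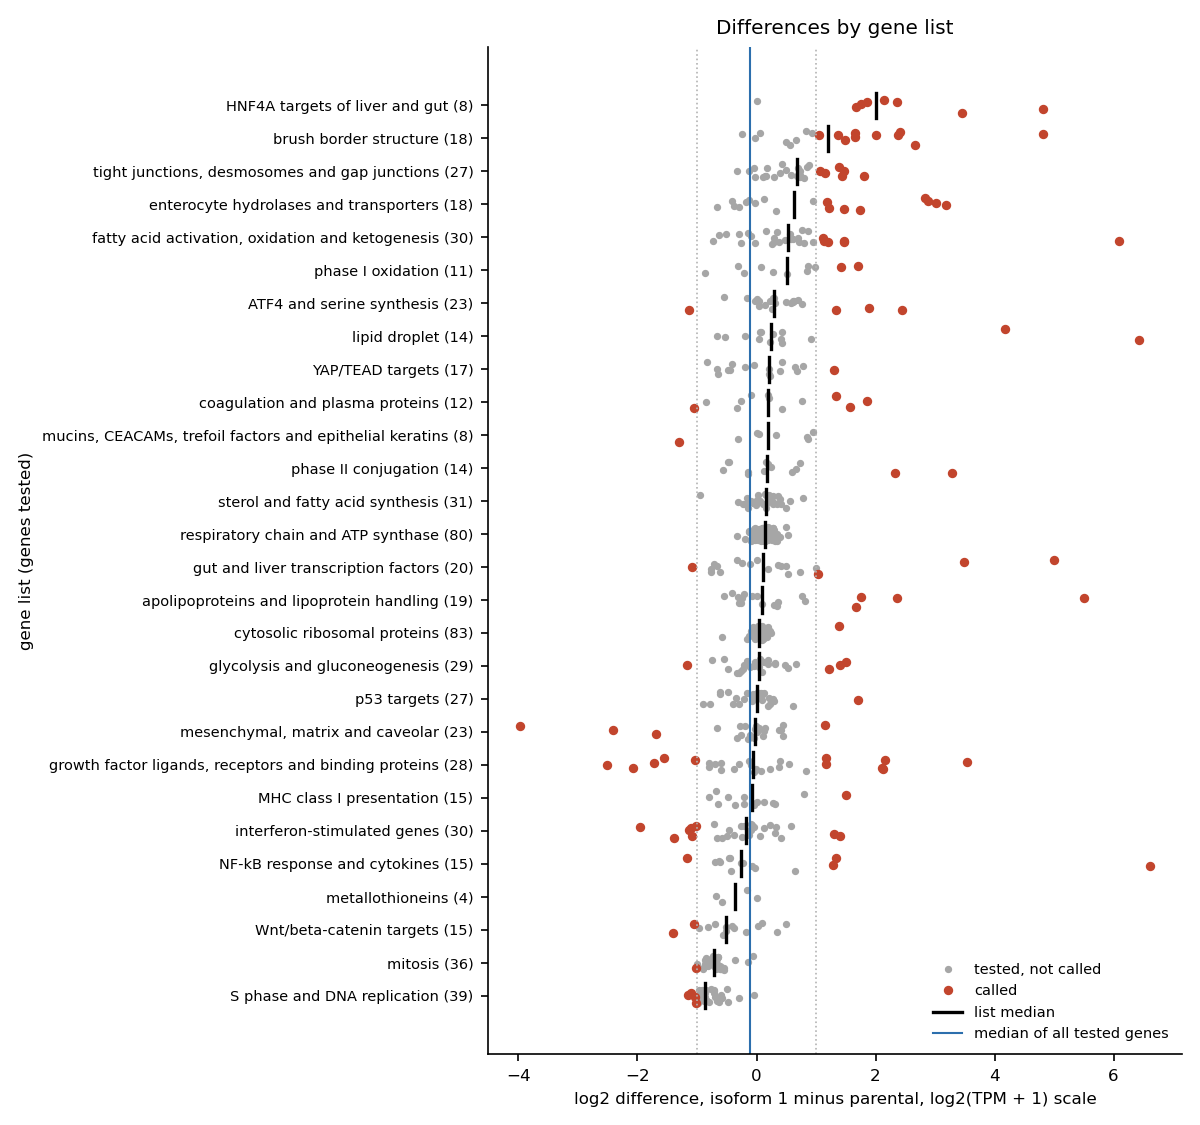
Difference of every tested gene of 28 gene lists (log2(TPM + 1) scale, x axis), with the lists on the y axis ordered by their median and the number of genes tested in brackets. Red points are called genes, grey points genes not called, black bars the list medians, and the blue line the median of all tested genes at -0.105. The 8 HNF4A targets and the 18 brush border genes have the highest medians (2.01 and 1.21), and the 39 S phase and 36 mitosis genes the lowest (-0.86 and -0.71). The 2 highest medians include genes that passed the filter only through the isoform 1 line. Over the 2 targets and 15 brush border genes that were on in the parental cells they are 0.93 and 0.93.

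Detoxification, plasma protein and transcription factor lists each gave between 2 and 4 calls. Of 11 tested phase I genes 2 were called higher and 0 lower, and of the 10 that were on in the parental cells 1 was called. CYP1A1, a target of the aryl hydrocarbon receptor, was at 2.34, 2.69 and 2.01 TPM and then at 10.3, 11.4 and 8.22 TPM (1.71 ± 0.15), and AKR1C3, a ketosteroid reductase, rose by 1.42 ± 0.14. AHRR, the repressor of that receptor, fell by 1.64 on the log2 scale, and AHR itself was at means of 18.2 and 16.6 TPM and did not pass. Of 14 tested phase II genes 2 were called higher and 0 lower. SULT2B1, a sterol sulfotransferase, was at 5.00, 6.22 and 5.37 TPM and then at 66.7, 59.5 and 62.4 TPM (3.29 ± 0.15), and MGST2, a microsomal glutathione transferase, rose from a mean of 19.9 to 104 TPM. SULT1A3 was also called, but its values of 5.26, 17.6 and 72.5 TPM in the isoform 1 line are uncertain, since the near-identical copy SULT1A4 can take up some of its reads, and without isoform 1 replicate 3 it was not called, with adjusted p-values of up to 0.0707 over the alternatives. NAT2, which acetylates drugs, rose from a mean of 1.49 to 20.2 TPM. Of 12 tested coagulation and plasma protein genes 3 were called higher (F10, CFI and PLAUR) and 1 lower (SERPING1, the inhibitor of complement C1), and without CFI, which was off in the parental cells, 2 of 11 were higher. The call of SERPING1 was lost with median-of-ratios scaling and without isoform 1 replicate 3. Of 20 tested gut and liver transcription factors 3 were called higher (CREB3L3, NR1I3 and KLF4) and 1 lower (FOXA1), with a median of 0.10. CREB3L3 and NR1I3 had parental means under 1 TPM, and of the 17 genes that were on in the parental cells 1 was called higher and 1 lower, with a median of -0.10. NR1I3, the nuclear receptor CAR that governs drug metabolism in liver, was at 0.904, 1.01 and 0.737 TPM and then at 21.7, 19.2 and 19.7 TPM (3.49 ± 0.16). KLF4, a factor of differentiated epithelium, went from 20.4, 20 and 19.6 TPM to 44.5, 38.1 and 44.0 TPM (1.04 ± 0.07), and this call was lost without isoform 1 replicate 1. FOXA1, a pioneer factor of endoderm, went from 4.93, 6.20 and 5.39 TPM to 1.66, 2.36 and 2.16 TPM, and its call was lost with median-of-ratios scaling and without isoform 1 replicate 1. CDX2, a factor of the intestinal epithelium, had a difference of -0.66 and was not called.

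Nearly all genes of proliferation were lower by adjusted p, and few of them by the fold that was asked for. Of 39 S phase and DNA replication genes, all tested, 0 were called higher and 4 lower (MCM2, ORC1, MCM10 and UHRF1). Their median was -0.86 and 38 of the 39 were lower by adjusted p alone, beside 38.5% of all genes. With median-of-ratios scaling the median was -0.73, 38 stayed lower by adjusted p alone and 1 was called. MCM2, a subunit of the replicative helicase, was at 153, 157 and 154 TPM and then at 70.8, 71.6 and 65.3 TPM (-1.15 ± 0.08). Of 36 tested mitosis genes 1 was called lower, TOP2A, which untangles sister chromatids, and 35 were lower by adjusted p alone (median -0.71). TOP2A went from 108, 118 and 116 TPM to 52.0, 63.3 and 52.9 TPM, just past the fold that was asked for (-1.02 ± 0.08), and its call was lost without parental replicate 2, without isoform 1 replicate 1 or 3, and with median-of-ratios scaling, where the list's median was -0.58. The number of S phase calls moved to 9 without isoform 1 replicate 2 or without parental replicate 3, and to 8 with a pseudocount of 0.1. CDKN1A, the inhibitor p21 of cyclin-dependent kinases, rose from 106, 105 and 100 TPM to 363, 331 and 331 TPM (1.71 ± 0.09, limma adjusted p = 1.31e-16). It was the only one of 27 tested p53 targets to be called, and the list's median was 0.00, with MDM2 at 0.19 and DDB2 at -0.61, neither called. The isoform 1 libraries did not overlap with the parental ones in MCM2, TOP2A or CDKN1A.

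**Figure D5:**
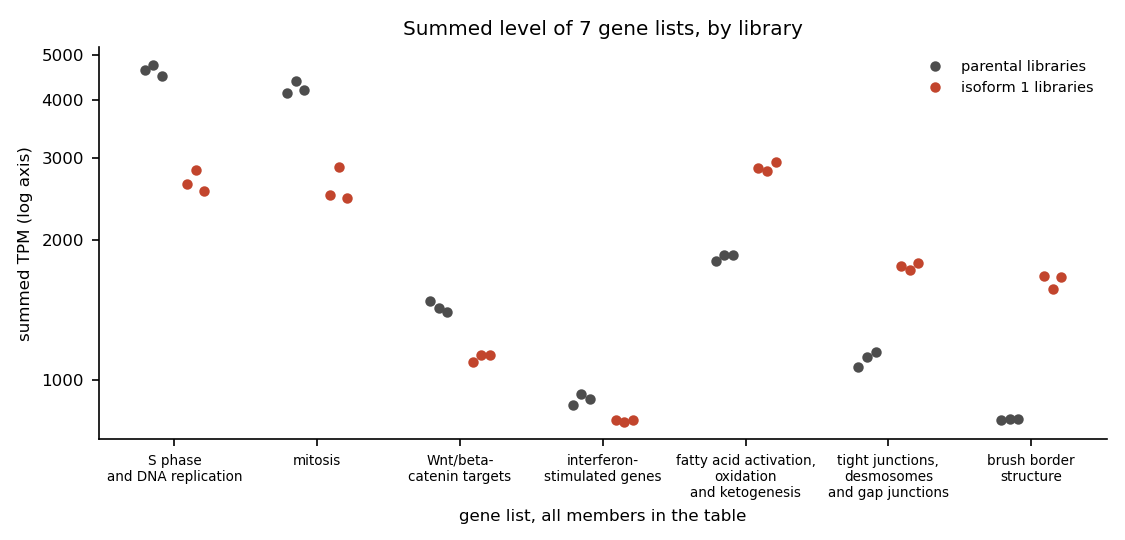
Summed TPM of all members of 7 gene lists (x axis) in each of the 6 libraries, on a log axis (y axis); grey points are parental and red points isoform 1 libraries. A sum follows its most abundant members. The S phase sum is at 4491 to 4758 TPM in the parental and 2552 to 2830 TPM in the isoform 1 libraries, and the brush border sum at 819 to 823 and 1569 to 1668 TPM.

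Targets of the signalling pathways of the crypt are set beside the share over all genes, 2.97% called higher and 1.81% lower. Of 15 tested Wnt/beta-catenin targets 0 were called higher and 2 lower, with a median of -0.52 (-0.38 with median-of-ratios scaling, with 1 lower call). By adjusted p alone 2 were higher and 10 lower, beside 20.1% and 38.5% of all genes. With the scaling 4 were higher and 10 lower, beside 4866 and 3870 of all 15065 genes. NOTUM, a secreted Wnt deacylase, was at 16.2, 15.9 and 15.9 TPM and then at 5.79, 5.94 and 4.71 TPM (-1.40 ± 0.09). EPHB2, a receptor that positions cells along the crypt, fell by 1.06 on the log2 scale, and that call was lost with the scaling. AXIN2 and MYC had differences of -0.57 and 0.02 and were not called. Of 17 tested YAP/TEAD targets 1 was called, AJUBA, a LIM protein of adherens junctions, which rose by 1.31 ± 0.09 (median of the list 0.20).

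Growth factor genes split in both directions. Of 28 tested ligands, receptors and binding proteins 6 were called higher and 5 lower (median -0.07), beside 2.97% and 1.81% of all genes. SEMA3B, a secreted semaphorin, was at 4.57, 4.65 and 4.85 TPM and then at 70.1, 63.6 and 60.7 TPM (3.53 ± 0.16). SEMA3B-AS1, an antisense RNA at its locus, was also called (1.85 ± 0.29), with the same limit on strand. The EGF receptor ligands AREG and EREG, neighbours on chromosome 4, rose together. AREG, amphiregulin, was at 26.1, 26.0 and 22.6 TPM and then at 120, 101 and 116 TPM (2.13 ± 0.10), and EREG, epiregulin, at 6.76, 7.08 and 6.51 TPM and then at 32.6, 36.2 and 32.4 TPM (2.16 ± 0.10). Neither gene's groups overlapped, and the receptor EGFR had a difference of 0.22 and was not called. The insulin-like growth factor genes were described after their values were seen. IGF2, the ligand, was at 11.0, 10.3 and 9.73 TPM and then at 2.58, 2.48 and 2.20 TPM (-1.73 ± 0.09), and its imprinted neighbour H19, a noncoding RNA, at 11.7, 10.8 and 10.9 TPM and then at 2.09, 2.04 and 1.39 TPM (-2.11 ± 0.15). CDKN1C, an imprinted gene farther along the same stretch of chromosome 11, had a difference of -0.46 and was not called. The binding proteins IGFBP6 and IGFBP7 fell by 2.07 and 1.56 on the log2 scale, while IGF2BP3, which binds IGF2 mRNA, rose from a mean of 1.63 to 10.2 TPM. Each of these called genes had 3 isoform 1 libraries beyond all parental ones.

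Immune genes were called in both directions. Of 30 tested interferon-stimulated genes 2 were called higher and 6 lower, beside 2.97% and 1.81% of all genes. The list's median was -0.17, beside the -0.105 of all genes. IFI6, a small mitochondrial protein induced by interferon, was at 24.6, 28.6 and 29.3 TPM and then at 6.90, 6.38 and 5.73 TPM (-1.96 ± 0.12). IFITM1, a membrane protein that restricts viral entry, fell by 1.39 on the log2 scale. OAS1 and ISG20, an oligoadenylate synthetase and an exonuclease, rose by 1.30 ± 0.11 and 1.40 ± 0.08. Of 15 tested genes of MHC class I presentation 1 was called, HLA-F, a nonclassical class I molecule, with 5.19, 5.98 and 6.18 TPM before and 20, 17.6 and 17.3 TPM after (1.51 ± 0.13). HLA-B had a difference of -0.04 and was not called. Within the MHC region TRIM15 and TRIM10, ubiquitin ligases chosen after their values were seen, rose by 3.77 ± 0.12 and 2.77 ± 0.12, while TRIM26 close by was at means of 40.5 and 41.6 TPM. TRIM40 and TRIM31, also close by, were too low to be tested. Their means were 0 and 0.227 TPM in the parental cells and 1.31 and 1.58 TPM in the isoform 1 line, without overlap between the groups. Of 15 tested NF-kB response and cytokine genes 3 were called higher (IL32, CCL20 and BCL3) and 1 lower (TNFAIP2), with a median of -0.26. IL32 and CCL20 passed the filter only through the isoform 1 line, and of the 13 genes that were on in the parental cells 1 was called higher and 1 lower, with a median of -0.43. NFKBIA, an inhibitor of NF-kB, had a difference of -0.08 and was not called. Activity of the pathway was not tested. CD68, a lysosomal glycoprotein best known from macrophages, was at 4.01, 4.44 and 3.10 TPM and then at 32.7, 34.7 and 31.8 TPM (2.82 ± 0.11), with PTPRC and CD3E at or near 0. PECAM1, from the endothelial list, was called at 1.02 ± 0.12 with VWF at means of 0.313 and 0.298 TPM and CDH5 at or below 0.109 TPM. The call of PECAM1 was lost without isoform 1 replicate 1 or 3 and without parental replicate 2 or 3.

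Genes of central metabolism and the housekeeping lists are given beside the share over all genes, 2.97% called higher and 1.81% lower. Of 29 tested genes of glycolysis and gluconeogenesis 3 were called higher and 1 lower (median 0.04). LDHA, lactate dehydrogenase A, was at 639, 627 and 610 TPM and then at 1646, 1626 and 1680 TPM (1.40 ± 0.05). PC, pyruvate carboxylase, went from 7.09, 7.03 and 7.64 to 24.5, 20.1 and 22.5 TPM, and SLC2A1, the glucose carrier GLUT1, rose by 1.23 ± 0.08. ENO2, the neuronal enolase, went from 27.8, 25.0 and 29.4 to 11.3, 12.0 and 11.5 TPM. None of these 4 genes had overlapping groups. Of 80 genes of the respiratory chain and ATP synthase 0 were called by limma (median 0.14, with 49 higher and 3 lower by adjusted p alone). With median-of-ratios scaling 66 were higher and 0 lower by adjusted p alone. ATP5F1B, a subunit of the synthase, was at means of 1097 and 1173 TPM. Of 31 tested genes of sterol and fatty acid synthesis 0 were called by limma (median 0.16, with 13 higher and 4 lower by adjusted p alone), among them SCD, the desaturase, at 0.27 ± 0.07 and FDFT1, squalene synthase, at 0.21 ± 0.05. Of 83 tested ribosomal protein genes 1 was called, RPL21, whose value is uncertain because reads can be shared with its processed copies, among them RPL21P16 at 1540, 1124 and 0.247 TPM in the isoform 1 line. By adjusted p alone 19 of the 83 were higher and 3 lower. With median-of-ratios scaling 70 were higher and 1 lower, so this count depends strongly on the scaling. Of 4 tested metallothioneins 0 were called (0 by adjusted p alone). MT2A was at 1262, 928 and 1091 TPM in the parental and 1052, 382 and 782 TPM in the isoform 1 libraries, which overlap. Of 23 tested ATF4 and serine synthesis genes 3 were called higher and 1 lower, with a median of 0.29. VEGFA, the endothelial growth factor, was at 28.8, 27.2 and 26.8 TPM and then at 109, 98.2 and 110 TPM (1.90 ± 0.09). CHAC1, which degrades glutathione, was at 4.22, 5.16 and 5.12 TPM and then at 42.5, 13.8 and 48.0 TPM, with isoform 1 replicate 2 well below the other two. PHGDH, the first enzyme of serine synthesis, fell by 1.13 on the log2 scale, and that call was lost with median-of-ratios scaling.

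Where isoform 1 differs from other isoforms was asked against 2 lines, in contrasts that do not use the parental libraries. Isoform 2 carries a short insertion in the C-terminal part and has the same N-terminus, and isoform 7 has the P2 N-terminus with the body of isoform 1, by the standard nomenclature. Against isoform 2, 39 genes were higher in isoform 1 (0.259% of the genes tested) and 16 lower (0.106%). Filtered by the mean over all 39 libraries, the counts were 36 higher and 16 lower. FMN1, a formin that builds actin filaments, was at a mean of 3.35 TPM in isoform 1 and 19.5 TPM in isoform 2, and F3, tissue factor, at 5.84 and 21.6 TPM, differences of -2.24 and -1.72. Against the parental cells F3 was not called in isoform 1 (0.21), and FMN1, at 0.96, was just under the fold that was asked for and was called under 4 of 12 alternatives, with values of 0.90 to 1.37 over all of them. ARL14EPL was at 11.8 TPM in isoform 1 and 36.2 TPM in isoform 2 (-1.58). In the other direction KRTAP3-1, a keratin-associated protein, was at 12.3 TPM in isoform 1, close to the parental 10.3 TPM, and at 0.369 TPM in isoform 2 (3.27, limma adjusted p = 7.60e-13). CHAC1 was at 34.8 TPM in isoform 1 and 5.67 TPM in isoform 2 (2.25). AREG and EREG were 1.08 and 1.15 higher in isoform 1 than in isoform 2 (limma adjusted p = 3.47e-09 and 1.46e-09). OAS1, which rose in isoform 1, was at 11.3 TPM there and at 2.33 TPM in isoform 2 (1.90).

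Against isoform 7, 198 genes were higher in isoform 1 (1.31%) and 34 lower (0.226%). Filtered by the mean over all 39 libraries, the counts were 175 higher and 38 lower. The 4 largest differences with isoform 1 higher were those of CYP17A1, CIDEB, SDCBP2 and VIL1. CYP17A1 was at 23.8 TPM in isoform 1 and 1.20 TPM in isoform 7 (3.48, limma adjusted p = 1.22e-15). CIDEB was at 58.5 and 4.44 TPM (3.45), SDCBP2 at 36.3 and 2.43 TPM (3.44), and VIL1 at 42.7 and 3.81 TPM (3.18). CREB3L3 was at 37.9 and 3.65 TPM (3.06). F10, at 36.4 TPM in isoform 1, was at 6.96 TPM in isoform 7, below the parental 9.25 TPM, and APOA1 at 5.54 and 0.359 TPM. CDKN1A was 1.21 higher in isoform 1 than in isoform 7. HPD, which breaks down tyrosine, went the other way, at 4.75 TPM in isoform 1 and 24.9 TPM in isoform 7 (-2.17, limma adjusted p = 1.75e-15), with 0.661 TPM in the parental cells. The small RNAs SNORA5B, SNORA46 and RNY4P7, which with HPD made up the 4 largest differences in that direction, varied widely between replicates, and SNORA46 was at 1.73, 6.58 and 0 TPM in the isoform 1 line. S100A14, a calcium-binding protein of epithelia that rose from a mean of 16.6 to 408 TPM in isoform 1, was at 304 TPM in isoform 7 and was not called between them.

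In the authors' deposited table of isoform 1 against the parental cells, 708 of the 719 genes called here have an adjusted p, and 686 of these pass 0.05 in the same direction there, with 0 in the opposite direction. The authors' deposited table gives ACSL5 a log2 fold change of 7.46 with a standard error of 0.122, and APOBEC1 one of 6.93 with 0.266, on the scale of their counts. The authors' deposited table gives SPARC -6.16 with 0.193 and DHRS2 -3.91 with 0.174. LOC107986892 (-0.615) and SULT1A3 (0.379), both called here, do not pass 0.05 there. SNORA2A and SNORA22C have no adjusted p there. That table describes libraries of the same series, so it is no independent support.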

How the data were processed

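Poly(A)-selected RNA of the 39 libraries was sequenced from strand-keeping libraries, per the labels' protocols. The authors deposited TPM per library for 45446 rows, and for isoform 1 their own log2 fold changes with standard errors and adjusted p-values. The submitters' processing notes name Trimmomatic 0.36, FastQC 0.11.5, kallisto 0.44.0, DESeq2 1.22.2 and GRCh38.p12. Not given in the sources used here are the annotation and the use of strand. TPM keeps no read depth, so no counting intervals were computed.

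The 12 HNF4A isoform rows were left out of every fit, and 45434 rows remained. limma 3.58.1 (R 4.3.3) was fitted to log2(TPM + 1) in all 39 libraries, with 13 groups, 26 residual degrees of freedom and an intensity trend. A gene was tested where its mean in the 6 parental and isoform 1 libraries reached 1 TPM, and p-values were adjusted over all of them. The fit was tested on simulated data. Alternatives changed the pseudocount, the filter, the scaling, the libraries in the fit, the replicate block and the on and off levels, and left out each replicate in turn. Gene positions come from GENCODE 29, and promoter sequences from RefSeq.

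The comparison, the gene lists and the rules were chosen with earlier results of these data known. Genes were named by rule: the 8 largest and 8 lowest differences, up to 4 called genes of each list or, where none was called, its 2 most abundant, the 12 most abundant switched-on and lost genes, and the 4 largest differences in each direction against isoforms 2 and 7. Any other gene named, list members that were not called included, was chosen after its values were seen. Some list members are not reported here.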

Additional observations from a re-analysis of the deposited data

Results flagged for a closer look

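The isoform 1 line differed from the isoform 2 line in 55 genes and from the isoform 7 line in 232 genes. The calls come from a limma contrast between the lines themselves (adjusted p under 0.05 and a log2 difference of at least 1 in size). With 1 line for each isoform, effects of the isoform and of deriving a line cannot be told apart.

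Of the 4 largest differences in each direction against isoform 2, the lower ones in isoform 1 were FMN1 (-2.24), SNORA2A (-2.22), F3 (-1.72) and ARL14EPL (-1.58). The higher ones were RNU6-431P (2.02), CHAC1 (2.25), KRTAP3-1 (3.27) and SULT1A3 (3.79). SULT1A3 can share reads with a near-identical copy, and SNORA2A and RNU6-431P are small RNAs in poly(A)-selected libraries, so their values are uncertain.

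Against isoform 7 the lower ones were SNORA5B (-2.51), HPD (-2.17), SNORA46 (-2.02) and RNY4P7 (-1.97), of which only HPD is a protein-coding gene. The higher ones were VIL1 (3.18), SDCBP2 (3.44), CIDEB (3.45) and CYP17A1 (3.48).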

How the results depend on the processing

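Of 133 named genes called, 118 were called the same way under every alternative that tested them, and 0 alternatives of a named gene reversed. Against the parental cells the lower calls (272) came to 518 with a pseudocount of 0.1, 166 with a minimum mean of 5 TPM and 169 with median-of-ratios scaling. Without a minimum difference 8838 genes passed, 3035 higher and 5803 lower. Against isoform 2 a pseudocount of 0.1 gave 99 calls, 75 of them higher, the 5 TPM filter 9 lower calls, and no minimum difference 2659 calls (1078 higher, 1581 lower). Against isoform 7 the pseudocount of 0.1 gave 371 calls (314 higher, 57 lower) and no minimum difference 6036 (2580 higher, 3456 lower). Switched-on genes numbered 19 with an off level under 0.5 TPM, 18 with an on level of 10 TPM and 74 with 2 TPM, and lost genes 1, 1 and 27. Leaving out each replicate in turn gave 709 to 782 calls against the parental cells and 2 to 4 lost genes, 4 of them without parental replicate 2. With the replicate number as a block, 742 genes were called against the parental cells, all 719 among them, and 27 were lower against isoform 2. Residuals of same-numbered libraries correlated at 0.107, 0.041 and 0.041, so the numbers were not taken as pairs. The cause of these shifts was not tested. Without read depth, levels near 0 have no counting error here.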

Other observations

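The genes below belong to no list described above and were chosen after their values were seen, one by one, and stand for no group. DHRS3, which reduces retinal to retinol, was at 11.5, 13.6 and 15.9 TPM in the parental cells and at 117, 113 and 109 TPM in the isoform 1 line (2.97 ± 0.15, limma adjusted p = 9.73e-17). STRA6, a membrane receptor for the retinol-binding protein, was at 3.31, 3.86 and 3.05 TPM and then at 0.664, 0.657 and 0.382 TPM (-1.49 ± 0.12). HMOX1, heme oxygenase 1, was at 25.9, 22.4 and 22.6 TPM and then at 155, 122 and 127 TPM (2.45 ± 0.09). SRXN1, sulfiredoxin, rose from a mean of 69.6 to 292 TPM, and GLRX, glutaredoxin, from 41.3 to 208 TPM. SELENOP, the plasma selenium carrier, was at 5.29, 5.48 and 6.17 TPM and then at 71.1, 73.3 and 77.1 TPM. None of these genes had overlapping groups.

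JUN, a subunit of AP-1, was at 16.1, 19.5 and 17.5 TPM and then at 110, 81.4 and 98.1 TPM (2.38 ± 0.10), and ZFP36, which speeds the decay of AU-rich mRNAs, at 11.4, 11.4 and 10.5 TPM and then at 76.1, 83.5 and 73.5 TPM (2.70 ± 0.10). The transcription factor ETS2 and the kinase PIM1 rose by 2.32 ± 0.09 and 2.03 ± 0.09. MVP, the major protein of vault particles, went from a mean of 4.47 to 70.9 TPM, and CD58, the ligand of the T cell receptor CD2, from 6.35 to 50.7 TPM.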
